A study of Homo sapiens with 10 samples.

Results

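The genes described are 10 surface proteins of plasma cells at which antibodies, antibody-drug conjugates or engineered T cells have been aimed in multiple myeloma, or which such work has considered. They are CD38, SLAMF7, SDC1, TNFRSF17, GPRC5D, FCRL5, CD46, CD47, CD48 and ITM2C, chosen by gene symbol, and all 10 had a row among the 60573 genes of the count table. Expression was measured by poly(A) RNA-seq in U266, an established human multiple myeloma cell line of IgE-producing plasma cell type. All cells carried dCas9-VPR, a nuclease-dead Cas9 fused to transcriptional activators and delivered by lentivirus, and were kept under blasticidin and puromycin. In 5 libraries, lettered A to E, the cells also carried a guide RNA for EFNB2, the ephrin-B2 ligand gene, aimed at its start. In 5 control libraries, lettered likewise, the guide was scrambled and non-targeting. Whether libraries with the same guide stem from independently grown cells is not given in the labels, and p-values therefore describe the spread between these libraries, which may be technical. Transduced populations of 1 cell line and 1 active guide were compared, and effects of that guide away from EFNB2 cannot be told apart from effects of EFNB2.

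Several of these surface targets are used in myeloma because plasma cells carry them at high density and most other tissues carry less. CD38 is an ectoenzyme that consumes NAD and is bound by daratumumab and isatuximab. SLAMF7, bound by elotuzumab, and CD48 are both adhesion receptors of the SLAM family. SDC1 encodes CD138, a heparan sulfate proteoglycan and the classical plasma cell marker. TNFRSF17 encodes BCMA, the survival receptor for BAFF and APRIL, which gamma-secretase cuts from the membrane. GPRC5D is an orphan receptor bound by talquetamab, and FCRL5 is an Fc receptor-like protein of late B cells. CD46 protects cells from complement, CD47 signals to macrophages not to engulf the cell, and ITM2C is a membrane protein with a BRICHOS domain. How much of a target a cell carries at its surface also depends on translation, transport and shedding, which RNA-seq does not measure.

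Libraries held 47267929 to 54761197 counts with the EFNB2 guide and 52142181 to 56513336 with the control guide. At this depth 3 counts, the limit that a count of 0 allows in 1 library, equal 0.0537 to 0.0627 CPM (counts scaled to a common library size), counting error only. The guide's own target had 52, 58, 60, 73 and 61 counts in libraries A to E of the EFNB2 guide and 9, 7, 8, 6 and 2 in those of the control guide, so no library went against its label. EFNB2 was 9.96-fold higher (log2 fold change 3.32, SE 0.25, adjusted p = 4.69e-08). Its level stayed low, with a mean of 1.21 CPM against 0.119 CPM with the control guide. The first principal component (61.7% of the variance) separated the guides, and on it the A library of each guide lay nearest the other guide. With the EFNB2 guide it stood at -26.4 against -34.6 to -35.9 in B to E, and with the control guide at 28.2 against 33.6 to 35.3. On the second component (8.33%) the A libraries lay farthest out in opposite directions, at 21.2 and -25.9. The ratios and likenesses below, with CD38 and SDC1, are given with and without both A libraries. Plasma cell markers outside the 10 targets ranged widely in level. IGHE stood at 3046 and 3447 CPM, JCHAIN at 2042 and 1899.6 CPM and XBP1 at 361 and 313 CPM (means, EFNB2 and control guide). MZB1 stood at only 3.54 and 5.57 CPM and CD9 at 5.04 and 4.10 CPM. Testable were 13 of 14, and CD27 was too low, at 0.0316 and 0.0786 CPM. Of the 14 plasma markers, 3 rose and 5 fell, which is 61.5% of those tested against 45.4% of all tested genes. MZB1 (log2 fold change -0.66), DERL3 (-0.33) and POU2AF1 (-0.23) were lower and CD9 (0.30) higher, and the median was -0.02 against 0.01 over all genes tested. CD9 did not pass when EFNB2-guide library A or D or control library C, D or E was left out (adjusted p from 0.068 to 0.0804). JCHAIN lost its call as higher, and TXNDC5 as lower, under some alternative settings (adjusted p from 0.0507 to 0.0897).

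Markers of other blood or stromal cells were low but not absent. The summed level of 11 T and NK cell markers lay between 36.3 and 41.7 CPM with the EFNB2 guide and between 30.5 and 33.3 CPM with the control guide, carried mostly by NCAM1 (24.4 and 19.3 CPM) and TRAC (8.95 and 5.90 CPM). NCAM1 (log2 fold change 0.34) and TRAC (0.60) both rose, while CD3D averaged 0.00367 and 0.00736 CPM and 4 of the 11 markers lay under 0.1 CPM. Over that list 3 of 7 tested genes rose and 3 fell, which is 85.7% against 45.4% of all tested genes. CD247 lost its call as lower under some alternative settings (adjusted p from 0.0534 to 0.123). The 9 monocyte markers summed to between 2.50 and 3.71 CPM and between 2.50 and 2.79 CPM, with LYZ at 0.0322 and 0.0257 CPM. Of these, 1 of 3 tested genes rose (33.3%) and none fell. The 9 stromal and endothelial markers summed to between 27.3 and 32.0 CPM and between 22.0 and 28.7 CPM, mostly from COL1A1 (0.50, SE 0.07). COL3A1 was lower (-0.44), and of 3 tested genes 1 was higher and 1 lower (66.7%). Of the 9 markers 5 lay under 0.1 CPM, among them COL1A2 at 0.0428 and 0.0111 CPM and CDH5 at 0 in all libraries. The part of these markers in the results was not tested.

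Among the 10 targets, 4 rose with the EFNB2 guide (CD38, SLAMF7, CD47 and CD48), 4 fell (ITM2C, SDC1, TNFRSF17 and FCRL5), CD46 did not pass the test and GPRC5D was too low to test. Across all 17833 tested genes 45.4% passed the same test, 22.8% as higher and 22.6% as lower, so a changed target was no rarity here. In 8 of the 9 tested targets the libraries of the 2 guides did not overlap, which held for 30.3% of tested genes. CD38 changed most, with a rank of 141 from the top by log2 fold change, and ITM2C ranked 152 from the bottom. A lower level in bulk RNA can mean fewer cells with the transcript or less of it per cell, and these cannot be told apart. The same 4 rises and 4 falls were found without both A libraries.

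**Figure D1:**
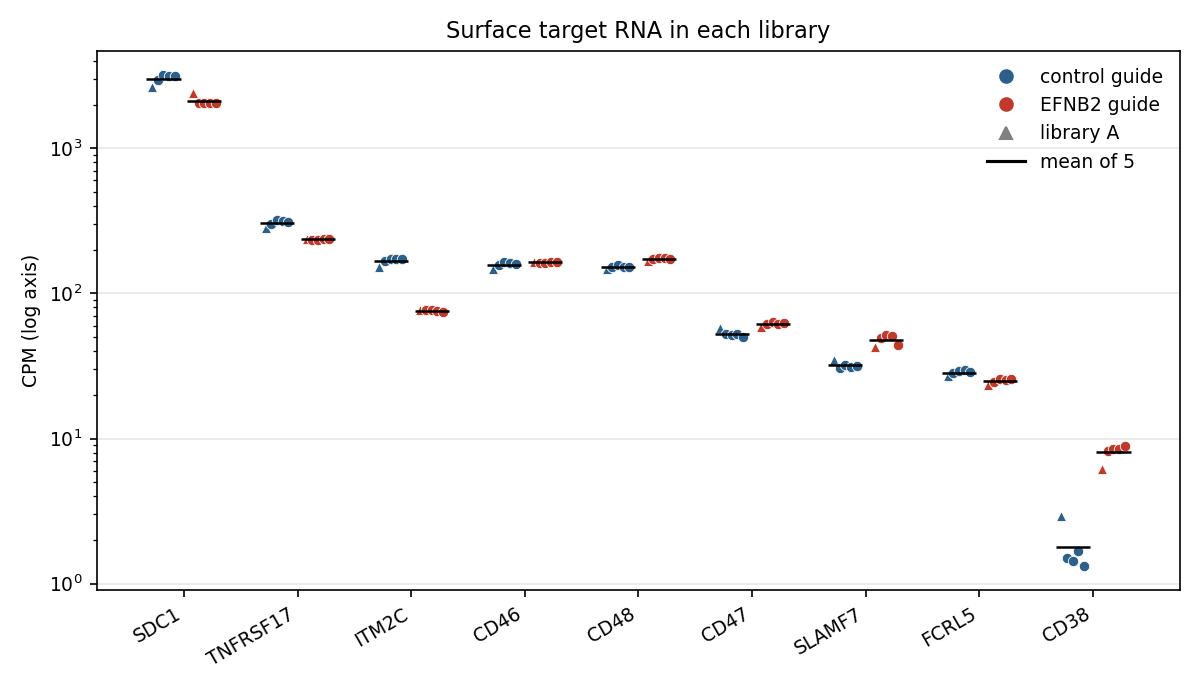
RNA of the 9 tested surface targets in each library, in CPM on a log axis, with blue for the control guide, red for the EFNB2 guide, triangles for the A library of each guide and black lines for the mean of 5. CD38 shows the widest gap between guides, from a mean of 1.78 to 8.03 CPM, and the A libraries of CD38 and SDC1 lie toward the other guide.

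**Figure D2:**
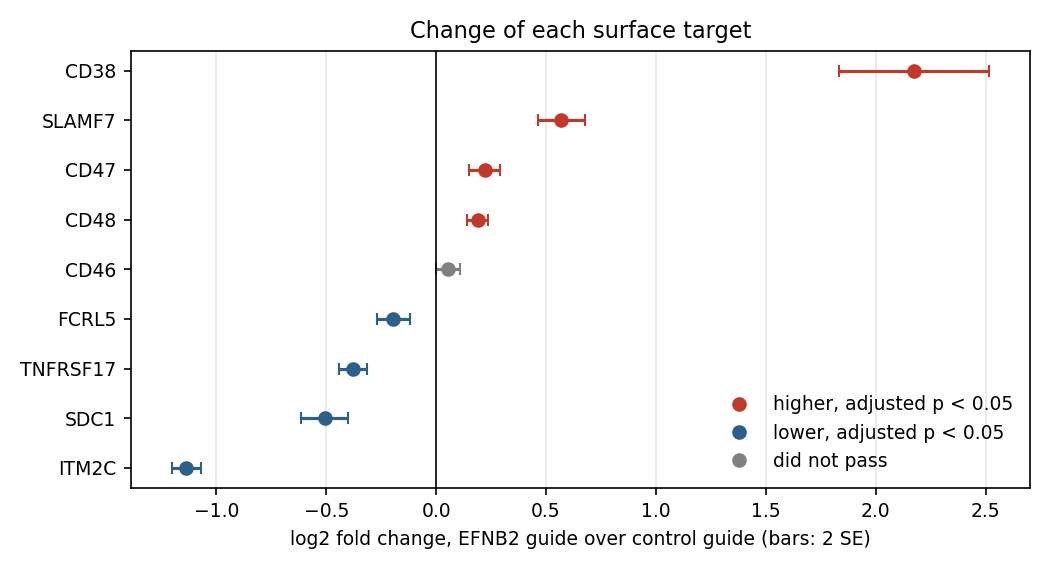
Log2 fold change of each tested surface target, EFNB2 guide over control guide, with bars of 2 SE on either side. Values run from -1.14 for ITM2C to 2.17 for CD38, and CD46 is drawn in grey because it did not pass an adjusted p of 0.05.

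CD38 (chromosome 4, 15778275 to 15853230, plus strand; positions of genes are from GENCODE 29 on GRCh38) was the weakest of the tested targets and rose most. It stood at 6.15, 8.16, 8.49, 8.44 and 8.94 CPM in libraries A to E with the EFNB2 guide and at 2.93, 1.51, 1.43, 1.69 and 1.33 CPM with the control guide. The groups did not overlap, but the A library was the lowest of its group with the EFNB2 guide and the highest among the controls. The mean went from 1.78 ± 0.657 to 8.03 ± 1.09 CPM (SD, n = 5 each), and the log2 fold change was 2.17 (SE 0.17, adjusted p = 6.66e-08), or 4.52-fold. Without both A libraries the log2 fold change was 2.51. The summed counts behind these values were 2027 with the EFNB2 guide and 478 with the control guide.

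The rise of CD38 did not extend evenly to the enzymes around it. Of 14 genes for NAD and adenosine metabolism 11 were tested, of which 3 rose and 4 fell, and the median log2 fold change was -0.06 (0.01 over all genes). Thus 63.6% of those tested passed, against 45.4% of all tested genes. ENTPD1 (CD39), which breaks down extracellular ATP, rose from 54.4 to 75.2 CPM (0.47, SE 0.04), whereas NT5E (CD73), which turns AMP into adenosine, fell from 123 to 89.9 CPM (-0.46, SE 0.06). The adenosine deaminase gene ADA (-0.74, SE 0.06) and the NAD synthesis gene NMNAT3 (-0.68, SE 0.11, from 3.74 to 2.33 CPM) also fell. The other genes of this list that passed were named after their values were seen. NAMPT rose from 489 to 586 CPM (0.26, SE 0.04) and NAPRT rose (0.38, SE 0.12), while NMRK1 fell (-0.30, SE 0.05). BST1, the relative of CD38 with a similar enzyme activity, was close to absent, at 0.0359 and 0.00358 CPM.

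SLAMF7 (chromosome 1, 160739057 to 160754821, plus strand) rose, and CD48 (chromosome 1, 160678746 to 160711851, minus strand), which lies 27.2 kb away, rose less. SLAMF7 stood at 42.4, 49.4, 51.4, 50.8 and 44.0 CPM with the EFNB2 guide and 34.9, 30.6, 32.3, 31.0 and 31.5 CPM with the control guide. Its A and E libraries were the lowest of the EFNB2 guide, and both still lay above all controls. The log2 fold change was 0.57 (SE 0.05, adjusted p = 5.76e-07), or 1.48-fold. CD48 stood at 167, 173, 176, 176 and 174 CPM against 147, 151, 158, 151 and 151 CPM, a log2 fold change of 0.19 (SE 0.02, adjusted p = 1.47e-05). Its ranges were narrow, with a coefficient of variation of 2.03% and 2.46%, so a change of 1.14-fold stood clear of the spread.

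The SLAM family did not move together. Of 11 other SLAM receptors, adaptors and the related CD2 and CD58, 6 were tested, none rose and 2 fell, with a median of 0.01. Thus 33.3% of those tested passed, against 45.4% of all tested genes. LY9, the next gene on the far side of SLAMF7 at 41.3 kb, fell from 52.1 to 48.1 CPM (-0.12, SE 0.03, adjusted p = 0.00563). SLAMF6 stood at 40.0 and 39.8 CPM (log2 fold change 0.01, adjusted p = 0.939), CD58, an adhesion ligand of T cells, at 24.2 and 24.0 CPM (0.01, adjusted p = 0.878), CD2 at 0.386 and 0.373 CPM (0.05, adjusted p = 0.89) and CD244, the receptor of CD48 on NK cells, at 0.254 and 0.199 CPM (0.35, adjusted p = 0.359). The adaptor SH2D1A (SAP) fell from 33.5 to 30.4 CPM (-0.14, adjusted p = 0.0262). That call was lost with the replicate letter as a block (0.0789) and when EFNB2-guide library B, C or E or control library C, D or E was left out (0.0538 to 0.0819).

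CD47 (chromosome 3, 108043094 to 108091862, minus strand) and CD46 (chromosome 1, 207752057 to 207795513, plus strand) protect cells from phagocytosis and from complement. CD47 stood at 58.9, 61.3, 63.3, 61.2 and 62.1 CPM with the EFNB2 guide and 57.4, 52.2, 51.3, 52.5 and 50.0 CPM with the control guide. The control A library lay just below the EFNB2 A library, and the groups did not overlap. CD47 rose by a log2 fold change of 0.22 (SE 0.04, adjusted p = 0.000125). CD46 stood at 166, 162, 163, 165 and 164 CPM against 148, 157, 164, 162 and 159 CPM, and these groups overlapped. Its log2 fold change was 0.06 (SE 0.03, adjusted p = 0.117), with 2 SE on either side from 0.00 to 0.11. CD46 passed with library totals alone (adjusted p = 0.0231), when genes needed 1 CPM or more in 5 libraries (0.0487) and without the C library of the controls (0.048).

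All 4 tested genes of the CD47 list passed, against 45.4% of all tested genes, 2 as higher and 2 as lower, with a median of 0.02. THBS1, a secreted ligand of CD47 (0.30, SE 0.09), and QPCTL, whose product modifies the end of CD47 that its receptor binds (0.19, SE 0.05), rose. QPCT, a related enzyme (-0.14, SE 0.03), and the chaperone CALR, which can act as a signal for engulfment at the surface (-0.18, SE 0.02), fell. The macrophage receptor SIRPA was at 0.0155 and 0.00745 CPM. Among complement regulators, CD59 rose from 331 to 359 CPM (0.12, SE 0.03, adjusted p = 0.012) and CD55 stood at 4.13 and 4.25 CPM (-0.04, adjusted p = 0.801), so 1 of 2 tested genes rose and none fell (median 0.04). CR1 had no count in any library.

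ITM2C (chromosome 2, 230864639 to 230879248, plus strand) fell most among the targets. It stood at 76.6, 76.2, 77.1, 76.1 and 74.9 CPM with the EFNB2 guide and 153, 167, 173, 172 and 172 CPM with the control guide. The EFNB2 group was tight, with a coefficient of variation of 1.06%, and its highest library lay far below the lowest control, which was the A library. The mean went from 168 ± 8.63 to 76.2 ± 0.804 CPM (SD, n = 5 each), and the log2 fold change was -1.14 (SE 0.03, adjusted p = 6.77e-13), so the control level was 2.20 times the level with the EFNB2 guide. Its relative ITM2B rose from 58.1 to 68.7 CPM (0.24, SE 0.04), and ITM2A was close to absent at 0.0395 and 0.00756 CPM.

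SDC1 (chromosome 2, 20200797 to 20225433, minus strand) was the most abundant target with either guide and fell. It stood at 2409.9, 2060.1, 2037, 2045 and 2052 CPM with the EFNB2 guide and at 2642, 2969, 3180.2, 3134 and 3149 CPM with the control guide. Libraries B to E of the EFNB2 guide lay between 2037 and 2060.1 CPM, and the A library lay well above them but still below every control. The log2 fold change was -0.51 (SE 0.05, adjusted p = 1.85e-06), and -0.60 without both A libraries. Genes for other syndecans and for building, trimming or shedding heparan sulfate proteoglycans numbered 26, of which 22 were tested. Of these, 10 rose and 3 fell, with a median of 0.12 against 0.01 over all genes. The share that passed was 59.1%, against 45.4% of all tested genes. EXT2, B3GAT3, HPSE and MMP9 lost their call as higher under some alternative settings (adjusted p from 0.0502 to 0.135). HS6ST1 lost its call as lower under some (adjusted p from 0.0505 to 0.0679). These genes were named after their values were seen. The other calls in this list held under every alternative setting with a value. The sheddase gene ADAM10 (0.34, SE 0.02, from 270.5 to 343 CPM), the chain polymerase gene EXT1 (0.34, SE 0.04) and the epimerase gene GLCE (0.40, SE 0.06) rose, and the sulfotransferase gene NDST1 fell (-0.35, SE 0.05).

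TNFRSF17 (chromosome 16, 11965107 to 11968068, plus strand) fell. It stood at 237, 234, 232, 239 and 238 CPM with the EFNB2 guide and 282, 301, 322, 317 and 311 CPM with the control guide. All libraries with the EFNB2 guide lay below all controls, of which the A library was lowest. The log2 fold change was -0.38 (SE 0.03, adjusted p = 1.54e-07). Genes for the complex that sheds BCMA changed little. Of 6 gamma-secretase genes none rose and 1, APH1A, fell (-0.09, adjusted p = 0.049), with a median of -0.07. Thus 16.7% of them passed, against 45.4% of all tested genes. Among the others, PSEN2 (-0.03), NCSTN (-0.00), APH1B (-0.13) and PSENEN (-0.16) did not pass (adjusted p from 0.0643 to 0.907). Without both A libraries 5 of the 6 passed as lower, and with library totals alone 0 did. APH1A also lost its call with the replicate letter as a block and without any 1 of libraries B to E of either guide (adjusted p of up to 0.131).

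The ligands of BCMA rose while the receptor fell. TNFSF13B, the BAFF gene, went from 9.22 ± 1.51 to 13.0 ± 0.85 CPM (SD, n = 5 each), with a log2 fold change of 0.50 (SE 0.09, adjusted p = 0.000467). The APRIL gene TNFSF13, named after its values were seen because it is weakly expressed, rose from 0.246 to 0.665 CPM (1.43, SE 0.25). The signalling adaptors TRAF1 (0.57, SE 0.09) and TRAF5 (0.36, SE 0.06) rose as well. Over the list of BCMA ligands, related receptors and adaptors 4 of 8 tested genes rose, none fell and the median was 0.20. That share of 50.0% lay near the 45.4% that passed among all tested genes. TRAF6, named after its values were seen, passed as lower without either or both A libraries (adjusted p from 0.000859 to 0.039).

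FCRL5 (chromosome 1, 157513377 to 157552520, minus strand) fell by a small amount. It stood at 23.5, 24.5, 25.6, 25.3 and 25.7 CPM with the EFNB2 guide and 26.8, 28.1, 29.3, 29.5 and 28.7 CPM with the control guide. The A library was the lowest within each guide, and the groups did not overlap. The log2 fold change was -0.19 (SE 0.04, adjusted p = 0.000561). FCRL3, its nearest tested neighbour at 122 kb and a member of the same family, was weakly expressed and fell from 0.677 to 0.204 CPM (-1.71, SE 0.22). GPRC5D (chromosome 12, 12940775 to 12952147, minus strand) had 1, 2, 1, 0 and 0 counts with the EFNB2 guide and 0, 0, 1, 0 and 1 with the control guide, all under the limit of 3 counts, so no fold is given. GPRC5D-AS1, annotated across it on the opposite strand, held 1932 counts and fell (-0.32, SE 0.08, from 4.08 to 3.27 CPM). The strand setting of the counting is not given in the sources used here, so reads of overlapping genes on opposite strands may not be fully separated. The same holds for TNFRSF17 and NPIPB2, which held 5.30% as many counts as TNFRSF17, and for CD48 and AL121985.1, which held 1.88%. Over the GPRC5, FCRL and ITM2 relatives 1 of 4 tested genes rose and 2 fell, with a median of -0.40. Thus 75.0% of those tested passed, against 45.4% of all tested genes. FCRLB, named after its values were seen, lost its call as lower under some alternative settings (adjusted p from 0.051 to 0.103).

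The stretch of DNA just before the start of a gene holds its core promoter, and it is shown for the target that rose most, the target that fell most and the most abundant target. Sequences are the 250 bases before the RefSeq start on GRCh38.p14, read 5′ to 3′ on the strand of the gene, with matches to 6 short motifs in capitals, and 8 of the 10 targets matched an entry by symbol. The window of CD38 is chr4:15778078-15778327 on the plus strand, that of ITM2C chr2:230863935-230864184 on the plus strand and that of SDC1 chr2:20225476-20225725 on the minus strand.
CD38: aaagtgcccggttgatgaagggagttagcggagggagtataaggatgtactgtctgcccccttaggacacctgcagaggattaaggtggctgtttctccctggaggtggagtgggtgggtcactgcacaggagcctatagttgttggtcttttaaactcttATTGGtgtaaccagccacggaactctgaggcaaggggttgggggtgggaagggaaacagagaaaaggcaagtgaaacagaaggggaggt
ITM2C: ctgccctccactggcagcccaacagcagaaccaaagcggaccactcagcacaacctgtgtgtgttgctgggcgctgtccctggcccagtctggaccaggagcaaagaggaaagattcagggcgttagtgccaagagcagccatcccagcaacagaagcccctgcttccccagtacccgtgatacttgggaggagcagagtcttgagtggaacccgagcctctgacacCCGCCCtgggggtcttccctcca
SDC1: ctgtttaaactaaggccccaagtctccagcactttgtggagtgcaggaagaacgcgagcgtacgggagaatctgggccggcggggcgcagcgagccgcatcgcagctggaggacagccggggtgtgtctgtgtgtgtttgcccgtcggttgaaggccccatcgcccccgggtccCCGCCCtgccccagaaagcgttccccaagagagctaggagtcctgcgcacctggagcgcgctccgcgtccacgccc

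The capitals mark the 1 CCAAT box of CD38, written on the opposite strand as ATTGG, which begins at base -89, and the 1 GC box (GGGCGG, here on the opposite strand as CCGCCC) of ITM2C at -23 and of SDC1 at -76, counted back from -1 just before the start. Both strands were searched for the box motifs CCAAT and GGGCGG and for the TATA box (TATAAA), a STAT site (TTCNNNGAA), an AP-1 site (TGANTCA) and a core of unfolded protein response elements (GACGTG). Each of these 3 windows held 1 match, so no matches overlapped. Among 27305 RefSeq promoters 33.0% held a CCAAT box, 42.3% a GC box, 11.1% TATAAA, 6.78% TTCNNNGAA, 6.60% TGANTCA and 6.54% GACGTG. The windows held 52.4% G and C bases for CD38, 60.8% for ITM2C and 66.4% for SDC1, against a median of 58.0%. The RefSeq start lies 53 bases from the GENCODE start for CD38, 42 for SDC1 and 454 for ITM2C. The bases after the RefSeq start were found in a GENCODE transcript of the gene for CD38 but not for SDC1 or ITM2C, and which start these cells use was not tested. A match describes letters only and was not tested for use.

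Ratios within a library do not depend on how libraries were scaled, and 7 of them were tested with an exact two-sided permutation test over every split of the 10 libraries into 5 and 5, whose smallest p is 0.00794. They are given as CPM of one target per 100 CPM of another, without adjustment for the number tested or for transcript length. Per 100 CPM of SDC1 there were 0.255, 0.396, 0.417, 0.413 and 0.436 CPM of CD38 with the EFNB2 guide and 0.111, 0.0510, 0.0451, 0.0539 and 0.0423 with the control guide. The log2 ratio was 2.73 higher, or 6.66-fold (exact p = 0.00794). Both A libraries fell into the gap between the others, and without them the log2 difference was 3.12. SLAMF7 per 100 CPM of SDC1 went from 1.07 ± 0.14 to 2.26 ± 0.316 (SD, n = 5 each), 2.11-fold (exact p = 0.00794, log2 difference 1.08, and 1.24 without both A libraries). CD38 and SLAMF7 were higher, and SDC1 lower, in every library of the EFNB2 guide than in every control. The smallest p was therefore fixed in advance for CD38 and SLAMF7 over SDC1 and adds nothing to the values of the single genes. ITM2C per 100 CPM of SDC1 went the other way, from 5.56 ± 0.14 to 3.61 ± 0.245 (SD, n = 5 each, log2 difference -0.63, and -0.57 without both A libraries, exact p = 0.00794 with all 10), although both genes fell.

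The remaining ratios set other pairs side by side. TNFRSF17 per 100 CPM of SDC1 was 9.85, 11.4, 11.4, 11.7 and 11.6 with the EFNB2 guide and 10.7, 10.1, 10.1, 10.1 and 9.87 with the control guide. The groups overlapped through the A libraries, and the log2 difference of 0.13 (exact p = 0.0476) did not hold when any 1 library other than the EFNB2 A library was left out (exact p from 0.0794 to 0.0952). Without both A libraries it was 0.19 (exact p = 0.0286, the smallest that 4 against 4 can give). FCRL5 per 100 CPM of SDC1 went from 0.947 ± 0.0408 to 1.18 ± 0.119 (SD, n = 5 each, log2 difference 0.31, exact p = 0.0159), with overlap from the A libraries as well, and the difference was 0.41 without both of them. SLAMF7 per 100 CPM of CD48 rose from 21.1 ± 1.42 to 27.5 ± 1.96 (SD, n = 5 each, log2 difference 0.38, exact p = 0.00794), and the difference was 0.45 without both A libraries. CD47 per 100 CPM of CD46 stood at 35.5 to 38.8 with the EFNB2 guide and 31.2 to 38.8 with the control guide (log2 difference 0.17, exact p = 0.0476). That p rose to 0.0794 to 0.0952 when any 1 library other than the control A library was left out. Without both A libraries the difference was 0.24 (exact p = 0.0286). Among all 36 pairs of tested targets, the ratios overlapped between guides for TNFRSF17 and FCRL5 with SDC1 and for CD47 with CD46 and CD48.

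**Figure D3:**
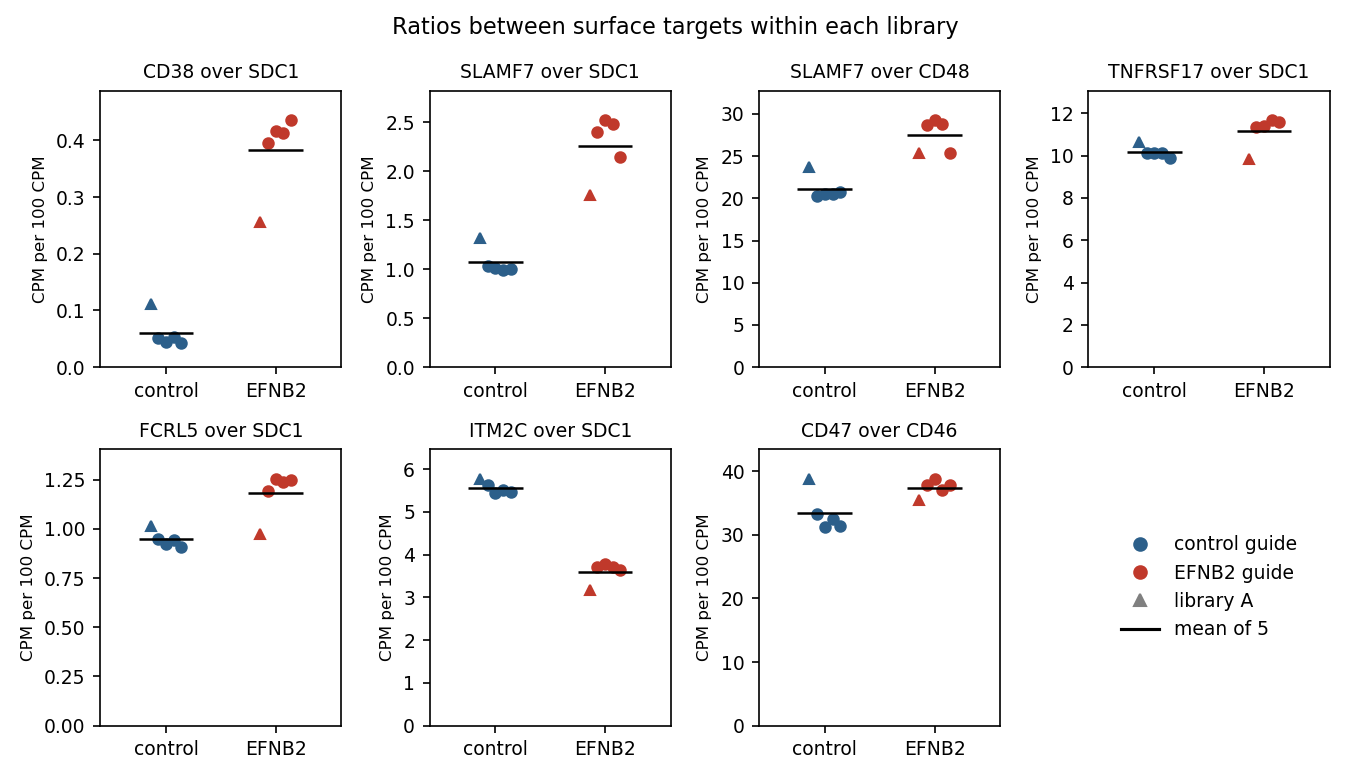
Ratios between surface targets in each library, as CPM of the first gene per 100 CPM of the second, on linear axes from 0, with triangles for the A libraries and black lines for the mean of 5. Among the ratios tested, CD38 over SDC1 separates the guides most widely (means of 0.0606 and 0.383), while TNFRSF17 over SDC1 overlaps between guides.

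Levels of different genes were compared per kilobase of annotated exon. SDC1 led with 589.9 ± 45 CPM per kb with the EFNB2 guide and 839 ± 62.3 with the control guide (SD, n = 5 each), above 99.8% of tested genes in both. TNFRSF17 followed with 211 ± 2.45 and 274 ± 14.3 CPM per kb. ITM2C came next in the controls (64.2 ± 3.30 CPM per kb), above CD48 (46.4 ± 1.14), but with the EFNB2 guide it lay at 29.2 ± 0.308, below CD48 (52.9 ± 1.07). CD46 lay at 18.8 and 18.1 CPM per kb, SLAMF7 at 9.85 and 6.63, CD47 at 7.46 and 6.40, FCRL5 at 2.01 and 2.29 and CD38 at 1.17 and 0.26 (EFNB2 and control guide). Neighbours in this order did not overlap between libraries, except SLAMF7 and CD47 in the controls. The exon length is the union over all annotated transcripts and is the same in every library. Its fit to the transcripts in these cells was not tested, so the spread between libraries leaves that error out. SDC1 alone made up 72.8% ± 1.6 of the summed CPM of the 10 targets with the EFNB2 guide and 77.0% ± 0.808 with the control guide, and the other 9 summed to 791 ± 9.05 and 899 ± 30.8 CPM (SD, n = 5 each). CD38 rose from the 13.7th to the 32.8th percentile of tested genes by level per kb.

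Other surface proteins that have been considered as targets in myeloma or B cell cancers changed in both directions. Of 34 such genes 27 were tested, of which 11 rose and 10 fell, and the median log2 fold change was 0.07. Thus 77.8% of those tested passed, against 45.4% of all tested genes. CD274, MUC1 and CD74 lost their call as higher, and CD79B, ITGB7 and TFRC as lower, under some alternative settings (adjusted p from 0.0507 to 0.231). They were named after their values were seen. The T cell ligand genes CD70 (0.59, SE 0.03, from 106 to 161 CPM) and CD86 (0.85, SE 0.09, from 3.73 to 6.69 CPM) rose. The semaphorin gene SEMA4A (-1.05, SE 0.09, from 8.12 to 3.93 CPM) and CD44, a hyaluronan receptor (-0.67, SE 0.03, from 165 to 103 CPM), fell. LILRB4, an inhibitory receptor, was named after its values were seen because its mean level lay under the minimum for named genes. It went from 0.453 ± 0.209 to 4.64 ± 0.346 CPM (SD, n = 5 each), and the log2 fold change was 3.35 (SE 0.19, adjusted p = 1.52e-09). The B cell targets MS4A1 (0.0151 and 0.00723 CPM) and CD22 (0.162 and 0.236 CPM) were too low to test.

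Of 14 transcription factors that act on plasma cell or B cell genes, 12 were tested, of which 4 rose and 5 fell, with a median of 0.03. Thus 75.0% of those tested passed, against 45.4% of all tested genes. BCL6, a transcriptional repressor that maintains the germinal centre program, went from 1.02 to 7.96 CPM (2.96, SE 0.11), and SPIB rose by 0.29. BACH2 (-0.74, SE 0.03, from 42.3 to 25.2 CPM) and the retinoic acid receptor gene RARA (-0.25, SE 0.04) fell. POU2AF1, already given among the plasma cell markers, is also on this list.

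**Figure D4:**
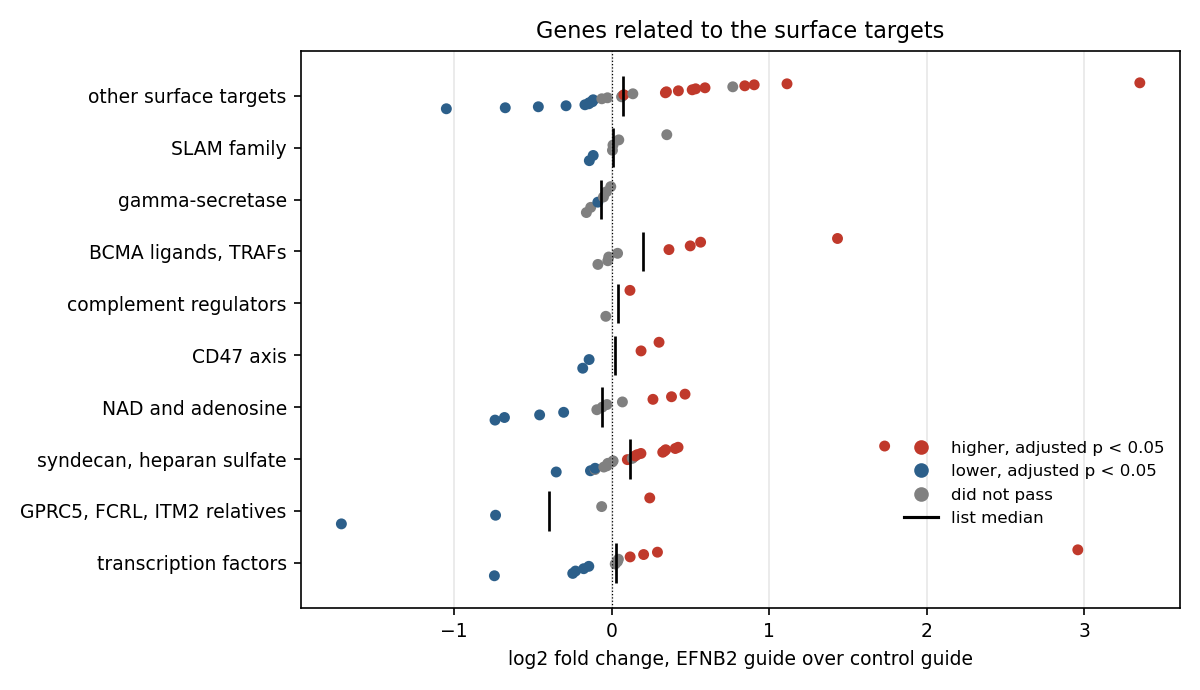
Log2 fold change of the tested genes in 10 lists of related genes, EFNB2 guide over control guide, with 1 point per gene, colour for the test result and a black line for the median of the list. The points of most lists lie on both sides of 0. The BCMA ligand and adaptor list holds 4 rises and no fall among 8 tested genes, a share of 50.0% against 45.4% of all tested genes. The farthest points are LILRB4 (3.35) and BCL6 (2.96).

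Genes within 250 kb of a target moved in both directions. Of 42 tested neighbours 12 rose and 11 fell, with a median of 0.02, where 22.8% of all tested genes rose and 22.6% fell. All 3 tested neighbours of CD38 rose: FAM200B (0.21, at 72.7 kb), FBXL5 (0.12, at 96.6 kb) and CC2D2A (1.79, SE 0.16, at 177 kb, from 0.730 to 2.53 CPM). FBXL5 and CC2D2A were named after their values were seen. Next to ITM2C, CAB39 fell (-0.22, at 43.6 kb) and C2orf72 rose (1.14, SE 0.08, at 158 kb). Next to SDC1, PUM2 fell (-0.15, at 23.3 kb) and LAPTM4A did not pass (0.05, adjusted p = 0.243). Next to TNFRSF17, SNX29 fell (-0.51, at 8.67 kb) and GSPT1 did not pass (-0.04, adjusted p = 0.206). On either side of CD47, LINC01215 rose (0.56, at 34.0 kb) and BBX fell (-0.30, at 232 kb). Beside GPRC5D neither HEBP1 (-0.03, adjusted p = 0.85) nor RPL13AP20 (0.01, adjusted p = 0.974) passed, and beside CD46 MIR29B2CHG did not (-0.25, adjusted p = 0.125).

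Deviations of each library from the mean of its guide show which targets varied together apart from the guide. Over 10 libraries, which share their scaling within each library, TNFRSF17 deviated most closely with CD46 (Pearson r of log2 CPM = 0.99, and 0.96 over the 8 libraries without A) and then with MARCHF8 (0.97, and 0.92 without A). CD46 was closest to STARD7 (0.99, and 0.97). CD38 was closest to CDC6 (0.98) and ZNF714 (0.98), with r = 0.75 for each without the A libraries. CD38 deviated with CD47 (0.97, and 0.78 without A) and against SDC1 (-0.89, but -0.22 without A). With the value without A given after each, SDC1 was closest to LRRC41 (0.99, 0.89) and LGALS1 (0.99, 0.94), and ITM2C to FAM117B (0.98, 0.93) and TMEM184B (0.98, 0.78). SLAMF7 was closest to DNAJC17 (0.95, 0.88) and PAXIP1 (0.94, 0.96), and FCRL5 to EHD4 (0.96, 0.90) and ENTPD1 (0.94, 0.82). CD47 was closest to PLEKHM2 (0.96, 0.78) and ZNF826P (0.96, 0.81), and CD48 to UQCRH (0.97, 0.95) and MICB (0.95, 0.90). These are the highest values among many genes over few libraries and are given as a description.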

How the data were processed

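Raw gene counts and, per the file headers, a normalized signal were deposited by the authors for the same 10 libraries. The signal served only as an alternative. Per the labels' protocols, libraries were strand-specific, poly(A)-selected and read in pairs. GRCh38, STAR 2.27a, Partek and DESeq2 appear, without roles, in the submitters' processing notes. Annotation and strand setting are not stated there. Members and gene lists were chosen with earlier results of these data known.

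Rows without a gene name (4, at most 0.000401% of counts) were left out. In R 4.3.3, filterByExpr (edgeR 4.0.16) kept 17833 genes. After TMM scaling the guides were compared by the quasi-likelihood test of edgeR, guide as the only term, with Benjamini-Hochberg adjustment over all tested genes and a threshold of 0.05. Adjusted p-values are from this fit unless another setting is named beside them. SE is the absolute log2 fold change over the square root of F. CPM use TMM-scaled library sizes. The common biological coefficient of variation was 0.0489. Steps were tested on simulated data.

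Named genes are EFNB2, the members, up to 4 genes past the threshold with the largest change per list (mean log2 CPM of at least 1), all tested genes of the gamma-secretase (1 is not reported here), complement, CD47 and SLAM lists, the nearest tested neighbour on each side and the 2 genes per member closest in within-guide deviation (mean log2 CPM of at least 3). Others are said to be named after their values were seen or are given as checks of cell type. Positions and exon lengths are from GENCODE 29, with 56510 of 60573 genes matched by symbol. The limit of 3 counts covers counting error only, while SE also takes in the spread between libraries. The planned ratios with GPRC5D were left out because it was at or under 2 counts in each library.

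Alternatives were DESeq2 1.42.0, limma-voom (limma 3.58.1), RLE scaling, library totals alone, no filter, at least 1 CPM in 5 libraries, a block for the replicate letter, no immunoglobulin genes, the deposited signal with limma-trend on log2(value + 1), leaving out each library, and leaving out both A libraries. For ratios, 0.5 CPM was added to both genes.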

Additional observations from a re-analysis of the deposited data

Results flagged for a closer look

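Within-guide values were compared for a single library far from the other 4, over 34 groups of 5 (EFNB2, the 9 tested targets and 7 ratios under each guide), and 11 were found, where chance gives about 1 in 20. All 11 were A libraries, and many share a gene. With the EFNB2 guide the A library held CD38 at 6.15 CPM against 8.16 to 8.94 CPM in the others and SDC1 at 2409.9 CPM against 2037 to 2060.1 CPM. Per 100 CPM of SDC1 the same library held 0.255 CPM of CD38, 9.85 of TNFRSF17, 0.975 of FCRL5 and 3.18 of ITM2C, each below the other 4.

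With the control guide the A library held CD38 at 2.93 CPM against 1.33 to 1.69 CPM in the others. It held 0.111 CPM of CD38 and 1.32 CPM of SLAMF7 per 100 CPM of SDC1, 23.7 CPM of SLAMF7 per 100 CPM of CD48 and 38.8 CPM of CD47 per 100 CPM of CD46, each above the other 4 controls. Except for ITM2C over SDC1, these A values lay toward the other guide. Among the 8 targets that passed the test, the A library was the nearest of its group to the other guide in 5 with the EFNB2 guide and in 7 with the control guide. The cause was not tested.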

How the results depend on the processing

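The log2 fold changes of CD38, SLAMF7, SDC1, TNFRSF17, FCRL5, CD47, CD48 and ITM2C kept their direction and passed under all 20 alternatives. CD38 ran from 1.70 (deposited signal, log2(value + 1)) to 2.51 (without both A libraries) and ITM2C from -1.17 to -1.12. CD46 passed with library totals alone (0.0716) and with at least 1 CPM in 5 libraries (0.0616), and leaving out single libraries gave 0.0281 to 0.0718. EFNB2 was 0.97 on the deposited signal, where the added 1 shrinks low genes, and from 3.09 to 3.55 otherwise. Genes past the threshold numbered 4071 higher and 4027 lower, and 3425 and 3338 with the replicate block. Same-lettered libraries did not deviate together (r from -0.24 to -0.00 over 5 pairs), so the letters were not taken to pair them. For ratios, an exact test that swaps the guides within letters over 5 pairs cannot give a p under 0.0625. None could therefore pass with the replicate block. The p of that test was 0.125, above this floor, for TNFRSF17 over SDC1, FCRL5 over SDC1 and CD47 over CD46. The log2 differences were 2.73 (CD38 over SDC1), 1.08 (SLAMF7 over SDC1), 0.13 (TNFRSF17 over SDC1), 0.31 (FCRL5 over SDC1), -0.63 (ITM2C over SDC1), 0.38 (SLAMF7 over CD48) and 0.17 (CD47 over CD46). Leaving out single libraries gave 0.12 to 0.18 for TNFRSF17 over SDC1 and 0.14 to 0.22 for CD47 over CD46. In the lists, lower gamma-secretase genes numbered 0 with library totals alone and 5 without both A libraries against 1. Lower BCMA partners numbered 1 without both A libraries against 0, lower GPRC5, FCRL and ITM2 relatives 1 with DESeq2 against 2, and lower stromal markers 2 with DESeq2 and 2 without both A libraries against 1. List counts were recomputed with library totals alone, DESeq2 and without both A libraries, and no other list count moved by over 1.5 times there. GPRC5D could not be fitted at its counts except without a filter (0.89, adjusted p = 0.61).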
